A study of Mus musculus with 4 samples.

Results

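The genes described here encode the folding and quality-control machinery of the endoplasmic reticulum (ER) and the unfolded protein response that adjusts it. They were chosen by gene symbol, from a list of 40 symbols covering sensors, chaperones, disulfide isomerases and ER-associated degradation. Vimp and Selenos name the same gene, so the list came to 39 genes of the 55401 gene identifiers in the count table. RNA was sequenced from mouse pancreatic tissue beside Panc02 tumours, Panc02 being a mouse pancreatic ductal adenocarcinoma line. The groups were 2 libraries from CRFR1-KO mice, with a conditional knockout of the corticotropin-releasing factor receptor CRFR1, and 2 libraries from WT mice, and both groups carried the tumour. The series title speaks of CRFR1 in mast cells, but the labels name neither the Cre driver nor the strain, the age or the number of animals. Nothing says that the libraries of a genotype came from separate mice, so the spread behind each p-value may be only technical.

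Secretory and membrane proteins enter the ER unfolded. Chaperones such as BiP (Hspa5) and the lectins calreticulin and calnexin hold them, disulfide isomerases form and shuffle their disulfide bonds, and proteins that fail to fold are passed back to the cytosol for degradation. When unfolded proteins accumulate, the sensors IRE1 alpha (Ern1), PERK (Eif2ak3) and ATF6 are activated: IRE1 alpha splices the Xbp1 mRNA, PERK lowers translation, and ATF6 is cut in the Golgi to release a transcription factor. The acinar cell of the exocrine pancreas makes digestive enzymes in very large amounts and is known for a dense rough ER and for its need of XBP1.

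ATF6 and XBP1 are known to act through the ER stress element, a promoter sequence of CCAAT and CCACG separated by 9 bases. Promoters from RefSeq (GRCm38.p6; 250 bases before to 50 after the RefSeq gene start) were found for 35 of the 39 genes, and this spaced pair was searched on both strands. It stood in a promoter of 10 of these 35 genes, or 28.6%, against 37 of all 27025 genes in the table, or 0.137%. The matches are shown as a feature that part of this group of genes shares at its promoters. The genes were chosen for their part in ER folding and its stress response, so this share is not independent of the choice. Each is written 5′ to 3′ on the strand that reads CCAAT, with 8 flanking bases on either side and the fixed letters in capitals.
Hspa5, chr2:34772017-34772051, plus strand: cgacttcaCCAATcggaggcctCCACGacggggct
Hsp90b1, chr10:86705630-86705664, minus strand: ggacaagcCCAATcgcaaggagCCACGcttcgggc
Hsp90b1, chr10:86705525-86705559, plus strand: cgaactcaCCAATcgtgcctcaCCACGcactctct
Calr, chr8:84847067-84847101, plus strand: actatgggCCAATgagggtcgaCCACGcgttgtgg
Canx, chr11:50325792-50325826, minus strand: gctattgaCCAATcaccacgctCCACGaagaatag
Dnajc3, chr14:118937819-118937853, plus strand: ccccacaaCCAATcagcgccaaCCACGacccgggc
Creld2, chr15:88819512-88819546, minus strand: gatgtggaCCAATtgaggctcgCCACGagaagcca
Pdia6, chr12:17266483-17266517, plus strand: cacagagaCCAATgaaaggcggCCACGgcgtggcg
Ero1lb, chr13:12565674-12565708, minus strand: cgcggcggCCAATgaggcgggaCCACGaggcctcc
Derl3, chr10:75893234-75893268, minus strand: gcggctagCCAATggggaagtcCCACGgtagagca
Syvn1, chr19:6046524-6046558, plus strand: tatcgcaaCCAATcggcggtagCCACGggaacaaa

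The element lay upstream of the RefSeq start in every one of these promoters, and Hsp90b1 held it on either strand. A shorter form, ER stress element II (ATTGG and CCACG separated by a single base), stood in the promoters of Herpud1 and Dnajb11, against 12 of all 27025 genes, or 0.0444%. The Herpud1 match shows the letters closed up around a single free base.
Herpud1, chr8:94386369-94386395, plus strand: gggcgctgATTGGgCCACGttggacac
The unfolded protein response element TGACGTGG, known as an XBP1 site, stood in Txndc5 and Txndc11, and in 0.714% of all genes. Hspa5 is the classical ER stress gene, and the 250 bases before its RefSeq start are given whole to show where the single exact element lies. GENCODE M21 places the start of the Hspa5 gene further upstream, at 34771970. The element, at 34772025 to 34772043, thus lies upstream of the RefSeq start but downstream of the GENCODE gene start.
Hspa5, chr2:34771840-34772089, plus strand: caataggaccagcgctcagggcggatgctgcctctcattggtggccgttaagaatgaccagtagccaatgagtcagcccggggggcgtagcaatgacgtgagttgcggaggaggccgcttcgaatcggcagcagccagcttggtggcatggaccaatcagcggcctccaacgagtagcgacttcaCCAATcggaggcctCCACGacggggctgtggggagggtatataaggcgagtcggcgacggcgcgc
These matches are descriptions of letters, and they do not show that a factor was bound in this tissue.

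The libraries held between 63495457 and 71203640 counts. Crhr1, which encodes CRFR1, had a count of 0 in all 4 libraries, and a floor of 3 counts allows between 0.0363 and 0.048 CPM (counts scaled to a common library size), which leaves the deletion unchecked in these libraries. The 28 acinar genes listed held 57.3% and 58.8% of the counts in the CRFR1-KO libraries and 55.5% and 55.3% in the WT libraries. These are shares of unscaled totals. In CPM they summed to 642967 and 569844 in CRFR1-KO, against 469523 in WT 1 and 601299 in WT 2. By that measure the genotypes overlapped and WT 1 was the lowest library. WT 1 stood apart from the other libraries in its cell type markers. WT 2 also lay above both CRFR1-KO libraries in the summed fibroblast, macrophage and duct markers. Log2 fold changes, CRFR1-KO over WT, were below 0 for 10 of 10 fibroblast markers (median -1.21, or -0.49 without WT 1). The same held for 9 of 9 macrophage markers (median -0.84, or -0.50 without WT 1) and 7 of 9 duct markers. They were above 0 for 23 of 28 acinar genes and 8 of 9 islet markers, against 49.2% of all genes tested. The summed level of 10 fibroblast markers was 158 and 171 CPM in CRFR1-KO, against 494 CPM in WT 1 and 229 CPM in WT 2, and that of 9 islet markers was 237 and 294 CPM in CRFR1-KO, against 40.1 CPM in WT 1 and 272 CPM in WT 2. The summed level of 9 macrophage markers was 46.5 and 75.3 CPM in CRFR1-KO, against 128 CPM in WT 1 and 95.5 CPM in WT 2, and that of 9 duct markers was 179 and 169 CPM in CRFR1-KO, against 290.2 CPM in WT 1 and 201 CPM in WT 2. Of 9 mast cell markers, 6 were at 0 in all libraries, including the proteases Cma1, Tpsb2 and Mcpt4. Kit and Cpa3 were detected in every library, and Hdc only in WT 2, with 8 counts. Kit had 874 and 701 counts in CRFR1-KO, against 939 and 898 in WT. Cpa3 had 33 and 4 counts in CRFR1-KO, against 39 and 8 in WT. The 15 plasma cell and B cell markers, another secretory lineage, summed to 28.6 and 26.0 CPM in CRFR1-KO, against 16.9 CPM in WT 1 and 47.7 CPM in WT 2, with Mzb1 and Ms4a1 at 0 in all libraries. Most of the WT 1 sum was Sdc1, at 11.7 CPM. Igha had 10.3 and 9.50 CPM in CRFR1-KO, against 1.34 CPM in WT 1 and 20.7 CPM in WT 2. Igkc and Jchain were likewise lowest in WT 1, while Sdc1, Ighm, Prdm1 and Tnfrsf17 were higher in WT 1 than in WT 2. In bulk tissue, fewer cells of a type and less RNA per cell cannot be told apart.

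All 39 genes were expressed in every library, and all passed the filter on low counts. Together they held 0.509% and 0.588% of the counts in the CRFR1-KO libraries and 0.629% and 0.551% in the WT libraries. Exact Clopper-Pearson 95% intervals, which cover counting error only, ran from 0.507% to 0.510% in CRFR1-KO 1 and from 0.628% to 0.631% in WT 1. The shares of the genotypes overlapped, with WT 1 the highest and CRFR1-KO 1 the lowest. These are shares of unscaled totals. On scaled library sizes the 39 genes summed to 5704 and 5699 CPM in CRFR1-KO, against 5327 CPM in WT 1 and 5993 CPM in WT 2. By that measure WT 1 was the lowest library and WT 2 the highest. Between 49.0% and 51.1% of the counts of the 39 genes came from Pdia2, P4hb and Sel1l. These were picked out for this sum after their values were seen.

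Levels were compared between genes as CPM per kilobase of exon. Pdia2, a disulfide isomerase known mainly from the pancreas, stood far above the rest at 933 and 862 CPM per kilobase in CRFR1-KO and 804 and 919.7 CPM per kilobase in WT. P4hb, the archetypal protein disulfide isomerase, was next at 278 and 251 CPM per kilobase in CRFR1-KO and 253 and 243 CPM per kilobase in WT, so that the level of Pdia2 was between 3.18 and 3.78 times that of P4hb in every library. The transcription factor gene Xbp1 came next, with 96.4 and 83.6 CPM per kilobase in CRFR1-KO and 80.7 and 79.5 CPM per kilobase in WT. Xbp1, Herpud1 and Sel1l, in that order by mean level per exon length, overlapped across libraries, since Herpud1 alone ran between 57.3 and 105.8 CPM per kilobase. With the length of the longest transcript in place of all exons, Sel1l at 95.0 stood above Herpud1 at 91.8 CPM per kilobase. Ero1lb and Ero1l encode the oxidases that recharge protein disulfide isomerase, Ero1lb being the form known from pancreas. The level of Ero1lb was between 25.04 and 35.1 times that of Ero1l. Among the derlins, channel components of ER-associated degradation, the level of Derl3 was between 4.17 and 4.99 times that of Derl1. Pdia5 was the least abundant gene, with a mean of 0.854 CPM per kilobase over the 4 libraries. The median over the 39 genes was 16.2 CPM per kilobase.

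**Figure D1:**
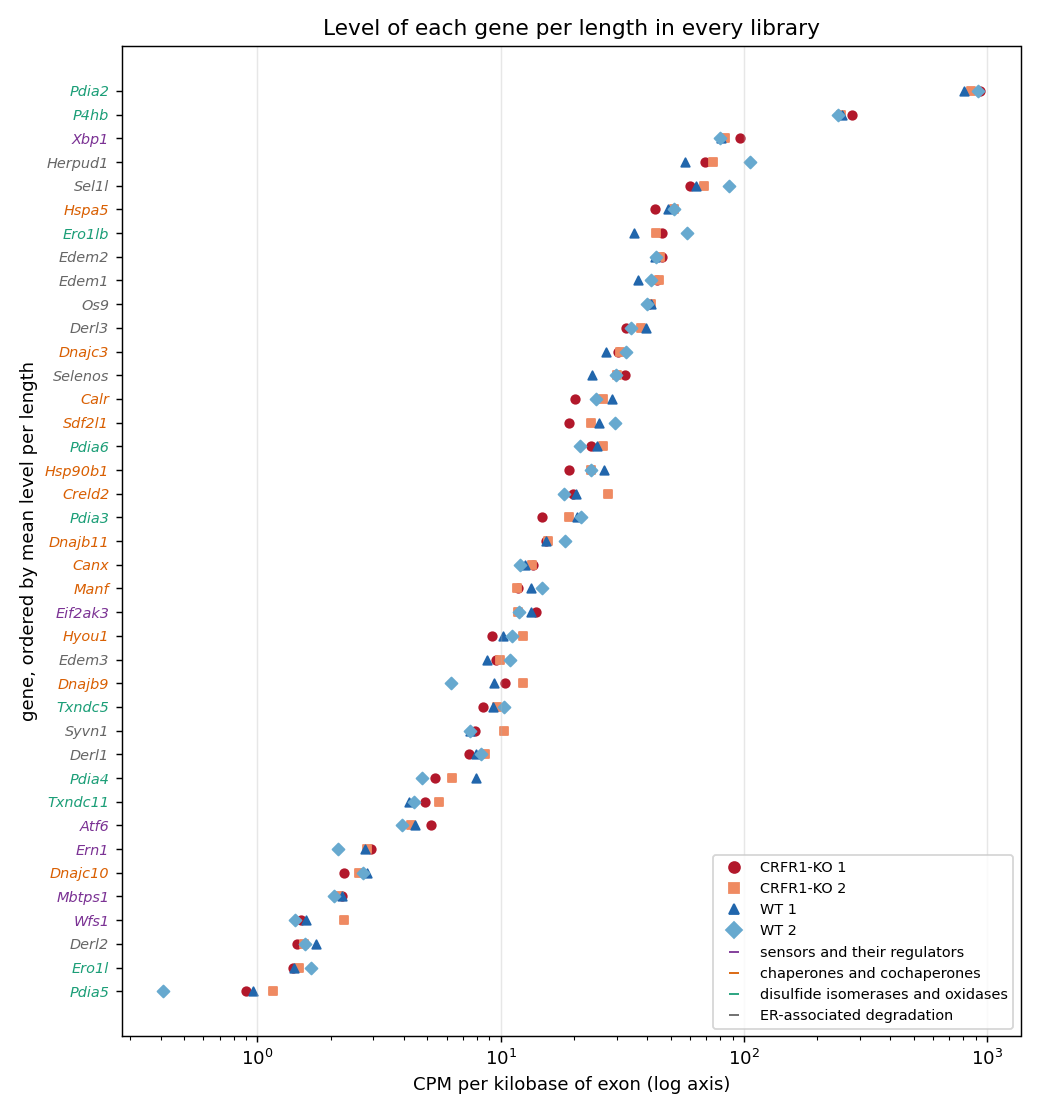
Level of each of the 39 genes in CPM per kilobase of exon (log axis) in the 2 CRFR1-KO and 2 WT libraries, ordered by the mean over libraries. Label colours give the role, each point is 1 library, and Pdia2 at 804 to 933 and Pdia5 at 0.408 to 1.16 CPM per kilobase mark the ends of the range.

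The comparison of CRFR1-KO with WT asks whether loss of the receptor went with a change in these genes. The edgeR quasi-likelihood test, adjusted over the 15131 genes tested, called 0 of the 39 genes, against 0.0264% of all genes tested, and the smallest adjusted p among them was 0.9999. At an unadjusted p under 0.05 there were also 0 of 39, against 4.86% of all genes tested. DESeq2 called 0 of the 39, against 0.383% of all genes tested, and limma-voom 0, against 0%. Each had 1 gene, Dnajb9, at an unadjusted p under 0.05, against 4.56% of all genes tested with DESeq2 and 4.57% with limma-voom. The median log2 fold change, CRFR1-KO over WT, was 0.01 over the 39 genes and -0.01 over all genes tested, and 21 of the genes had a fold change above 0 and 18 below, against 49.2% above and 50.8% below among all genes tested. Without CRFR1-KO 2 the split was 19 above and 20 below. The libraries of the genotypes did not overlap for 14 of the 39 genes, 9 with CRFR1-KO above WT and 5 with CRFR1-KO below, or 35.9%, against 33.5% of all genes tested (16.6% above and 16.9% below). With no scaling beyond library totals the median of all genes shifted to -0.13, 12 of the 39 genes stood above 0 and 27 below, and 5 did not overlap, against 28% of all genes tested. Relative to that shifted median, 23 of the 39 genes stood above it and 16 below.

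A p that misses the threshold does not show that levels were the same, so the interval of each difference matters here. The 95% interval of the fold change excluded a 2-fold change in either direction for 37 of the 39 genes. The exceptions were Dnajb9 and Pdia5, whose intervals reached past a 2-fold higher level in CRFR1-KO. For 19 genes the interval also excluded a 1.5-fold change in either direction. SEs lay between 0.16 and 0.43 on the log2 scale.

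**Figure D2:**
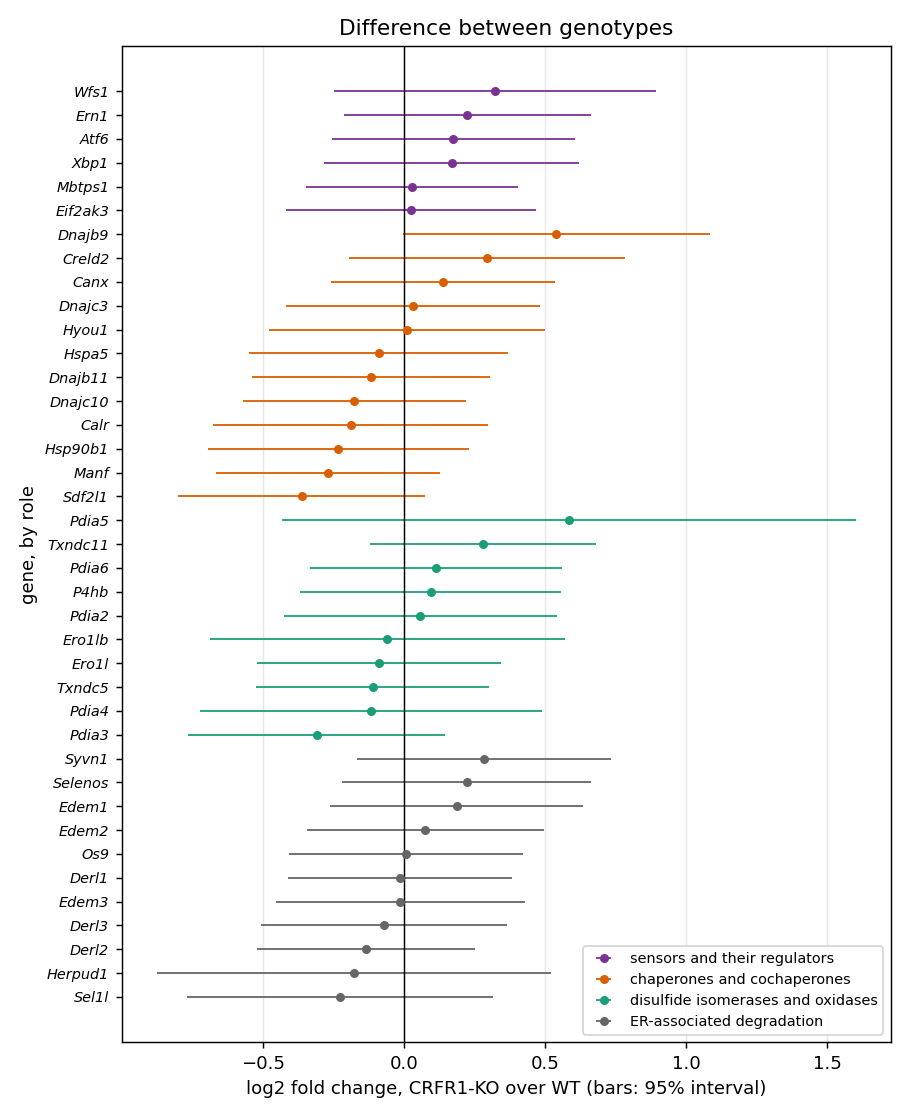
Log2 fold change, CRFR1-KO over WT, of the 39 genes (points) with its 95% interval (bars), grouped by role. Every interval includes 0, and that of Dnajb9 comes closest to leaving it out, at -0.004 to 1.08.

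The sensors and the genes that act with them numbered 6, and each had a measured fold change above 0, with a median of 0.17 on the log2 scale and 0 past the test. On library totals Eif2ak3 and Mbtps1 turned below 0, while all 6 still stood above the median of all genes. Without CRFR1-KO 1, 5 of the 6 were above 0, and without WT 2, 4 of the 6. Ern1 (chromosome 11, 106394650 to 106487852, GRCm38 in GENCODE M21), encoding the kinase and ribonuclease IRE1 alpha, had 24.0 and 23.0 CPM in CRFR1-KO, against 22.7 and 17.5 CPM in WT. CRFR1-KO libraries were thus the upper pair, though CRFR1-KO 2 and WT 1 nearly met, and the log2 fold change was 0.22 (SE 0.19), or 0.055 without WT 2. Its target Xbp1 (chromosome 11, 5520659 to 5525893) had 313 and 272 CPM in CRFR1-KO, against 262 and 258 CPM in WT. Again the genotypes did not overlap, with CRFR1-KO 1 the high library and a log2 fold change of 0.17 (SE 0.19), or 0.064 without CRFR1-KO 1. A gene count adds spliced and unspliced Xbp1 mRNA together, so IRE1 activity was not measured.

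Eif2ak3 (chromosome 6, 70844515 to 70905245), encoding the translation-blocking kinase PERK, had 83.9 and 70.8 CPM in CRFR1-KO, against 80.5 and 71.7 CPM in WT. The libraries were interleaved, and the log2 fold change was 0.02 with a 95% interval of -0.42 to 0.47. Atf6 (chromosome 1, 170704674 to 170867771), encoding the membrane-bound transcription factor, had 47.6 and 39.7 CPM in CRFR1-KO, against 41.2 and 36.2 CPM in WT, and these overlapped (log2 fold change 0.17, SE 0.18, or 0.038 without CRFR1-KO 1). Mbtps1 encodes the site-1 protease that makes the opening cut in ATF6, and its log2 fold change was 0.03 (SE 0.16). Wfs1, the wolframin gene, is known in beta cells as a brake on ATF6. It had 5.70 and 8.57 CPM in CRFR1-KO, against 5.99 and 5.42 CPM in WT, with CRFR1-KO 2 the single high library and a log2 fold change of 0.32 (SE 0.24). Without CRFR1-KO 2 that value was 0.007.

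Chaperones and cochaperones numbered 12, with 5 fold changes above 0 and 7 below, a median of -0.10 and 0 past the test. On library totals 3 stood above 0 and 9 below, and relative to the median of all genes the split was again 5 and 7. Without CRFR1-KO 1 the split was 6 and 6 with a median of 0.015, without WT 2 it was 6 and 6 with a median of -0.011, and without CRFR1-KO 2 the median was -0.21. Hspa5 (chromosome 2, 34771970 to 34777547), the BiP gene and the most abundant of them per length, had 182 and 218 CPM in CRFR1-KO, against 207 and 218 CPM in WT. CRFR1-KO 1 was the low library and the other 3 lay close together. The log2 fold change was -0.09 with a 95% interval of -0.55 to 0.37, and it was 0.04 without CRFR1-KO 1. The other major folding genes were Hsp90b1 (GRP94) at -0.23, calreticulin gene Calr at -0.19, calnexin gene Canx at 0.14 and Hyou1, a nucleotide exchange factor for BiP, at 0.01 on the log2 scale. Without CRFR1-KO 1, Hsp90b1 was -0.088 and Calr was -0.0060.

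The extremes of the chaperone group were partners of BiP. Dnajb9 (ERdj4; chromosome 12, 44205559 to 44210326), a J-domain cochaperone known as an XBP1 target, had 26.6 and 31.4 CPM in CRFR1-KO, against 24.0 and 15.9 CPM in WT. The genotypes did not overlap, and WT 2 was the library farthest from the rest. The log2 fold change was 0.54 (SE 0.23), with an unadjusted p of 0.0511 in the edgeR quasi-likelihood test. It was 0.87 without WT 1 and 0.28 without WT 2. Sdf2l1 (chromosome 16, 17130138 to 17132383), a component of an ER chaperone complex with BiP, had 21.2 and 26.2 CPM in CRFR1-KO, against 28.2 and 32.8 CPM in WT. Here CRFR1-KO was the lower pair, with a log2 fold change of -0.36 (SE 0.19). Manf, encoding a secreted and ER-resident protein that binds BiP, had 41.4 and 41.0 CPM in CRFR1-KO, against 47.1 and 52.3 CPM in WT (log2 fold change -0.27, SE 0.17). The Manf model shares exon bases with Rbm15b, and with both models summed the value was -0.18.

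The remaining cochaperones lay between these. Creld2, a secreted ER stress gene, stood at 0.29, Dnajc3 (p58IPK, an inhibitor of PERK) at 0.03, Dnajb11 (ERdj3) at -0.12 and Dnajc10 (ERdj5, a disulfide reductase) at -0.18 on the log2 scale. Creld2 was 0.046 without CRFR1-KO 2, and Dnajc10 was -0.072 without CRFR1-KO 1. Genes with an ER stress element or its shorter form were spread over both directions. Of 12 such genes, 5 had a fold change above 0 and 7 below, with a median of -0.07 and a range of -0.23 to 0.29. The 23 genes with neither form in their promoter windows ran from -0.36 to 0.58, with a median of 0.03.

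Disulfide isomerases and oxidases numbered 10, with 5 fold changes above 0, 5 below and 0 past the test. On library totals 2 stood above 0 and 8 below, and relative to the median of all genes the split was again 5 and 5. Pdia2 (chromosome 17, 26195999 to 26199087) had 1605 and 1483 CPM in CRFR1-KO, against 1384 and 1583 CPM in WT. The libraries were interleaved, with a log2 fold change of 0.06 (95% interval -0.42 to 0.54). P4hb had 796 and 719 CPM in CRFR1-KO, against 723 and 696 CPM in WT, and overlapped as well (log2 fold change 0.09, SE 0.20, or 0.020 without CRFR1-KO 1). Pdia3 (ERp57), which works with calnexin and calreticulin on glycoproteins, had 46.6 and 60.0 CPM in CRFR1-KO, against 65.0 and 67.1 CPM in WT. CRFR1-KO was the lower pair for Pdia3, with a log2 fold change of -0.31 (SE 0.19) that was -0.14 without CRFR1-KO 1.

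Txndc11, encoding a thioredoxin-like protein of the ER, had 43.2 and 49.3 CPM in CRFR1-KO, against 37.2 and 39.0 CPM in WT. CRFR1-KO was the upper pair (log2 fold change 0.28, SE 0.17). Pdia5 had the widest interval of all 39 genes, with 2.48 and 3.21 CPM in CRFR1-KO, against 2.65 and 1.13 CPM in WT, resting on between 74 and 219 counts per library. WT 2 was the single low library, and the log2 fold change of 0.58 (SE 0.43) became 0.11 without WT 2 and 1.33 without WT 1. The other isomerases and oxidases were at 0.11 for Pdia6, -0.11 for Txndc5, -0.12 for Pdia4, -0.09 for Ero1l and -0.06 for Ero1lb on the log2 scale. Pdia6 was 0.0017 without WT 2, and Txndc5 was -0.011 without CRFR1-KO 1.

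ER-associated degradation was represented by 11 genes, with 5 fold changes above 0, 6 below, a median of -0.01 and 0 past the test. On library totals 3 stood above 0 and 8 below, while 7 stood above the median of all genes. Without CRFR1-KO 1 the split was 8 above and 3 below (median 0.027), and likewise 8 and 3 without WT 2 (median 0.088). Herpud1 (chromosome 8, 94386438 to 94395377), which gathers the degradation complex at the membrane, had 162 and 174 CPM in CRFR1-KO, against 134 and 247 CPM in WT. Both CRFR1-KO libraries lay inside the gap between the WT libraries. The log2 fold change was -0.18 (SE 0.30), -0.55 without WT 1 and 0.34 without WT 2. Sel1l and Syvn1 encode the adaptor and the ubiquitin ligase (HRD1) of the central complex. Sel1l had 516 and 588 CPM in CRFR1-KO, against 546 and 745 CPM in WT, overlapping, with WT 2 the high library (log2 fold change -0.23, SE 0.23). Syvn1 had 38.3 and 50.1 CPM in CRFR1-KO, against 36.4 and 36.2 CPM in WT. The WT libraries were nearly equal and CRFR1-KO 2 stood above the rest, giving a log2 fold change of 0.28 (SE 0.19), or 0.084 without CRFR1-KO 2.

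Selenos, a selenoprotein that recruits the p97 ATPase, had 48.0 and 44.3 CPM in CRFR1-KO, against 35.0 and 44.1 CPM in WT. CRFR1-KO 2 and WT 2 were almost level, and the log2 fold change was 0.22 (SE 0.19), or 0.067 without WT 1. Edem1, a mannosidase-like gene that marks glycoproteins for degradation, had 284 and 289 CPM in CRFR1-KO, against 236 and 268 CPM in WT (log2 fold change 0.19, SE 0.19, or 0.10 without WT 1). Its relatives Edem2 and Edem3 stood at 0.08 and -0.01. The lectin gene Os9 stood at 0.008, and the derlin genes Derl1, Derl2 and Derl3 at -0.01, -0.13 and -0.07 on the log2 scale. Derl2 was -0.057 without WT 1.

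Libraries of the same genotype also differed from each other. The median absolute log2 ratio over the 39 genes was 0.19 between the CRFR1-KO libraries and 0.18 between the WT libraries. Over the 8490 genes at or above the lowest mean CPM among the 39, the same medians were 0.18 between the CRFR1-KO libraries and 0.24 between the WT libraries. Between the CRFR1-KO libraries, 27 of the 39 genes had the higher CPM in CRFR1-KO 2, against 49.9% of all genes tested. By role these were 10 of 12 chaperones, 9 of 11 degradation genes, 7 of 10 isomerases and oxidases, and 1 of 6 sensors and their regulators. The ratio of CRFR1-KO 1 over CRFR1-KO 2 was farthest from 0 for Wfs1, of the sensor group, at -0.59 on the log2 scale. It was -0.48 for Creld2, -0.43 for Hyou1, -0.39 for Calr and -0.39 for Syvn1. Of the 10 genes with an ER stress element, 8 had the higher CPM in CRFR1-KO 2. No test was made of this split, which was noticed after the values were seen.

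Between the WT libraries, 20 of the 39 genes had the higher CPM in WT 1, against 51.5% of all genes tested. By role these were 6 of 6 sensors and their regulators, 6 of 12 chaperones, 4 of 10 isomerases and oxidases and 4 of 11 degradation genes, and 7 of the 10 genes with an ER stress element. The widest gaps ran both ways: the log2 ratio of WT 1 over WT 2 was 1.23 for Pdia5, 0.74 for Pdia4 and 0.59 for Dnajb9, but -0.89 for Herpud1, -0.72 for Ero1lb and -0.45 for Sel1l. The summed islet and plasma cell markers were also low in WT 1 and the fibroblast markers high, as given above, and their part in these gaps was not tested. Without WT 1, 5 of the 39 genes (Ern1, Sdf2l1, Dnajb9, Pdia5 and Herpud1) had an unadjusted p under 0.05 in edgeR, against 8.69% of all genes tested in that fit, and 0 passed after adjustment. Without WT 2 it was 0 of 39, against 7.34% of all genes tested. Each such fit leaves WT a lone library, which is assumed to vary like the CRFR1-KO pair. A lone library also makes groups that do not overlap more common: 21 genes did not overlap without CRFR1-KO 1, against 63.1% of all genes tested, 27 without CRFR1-KO 2, against 63.2%, 32 without WT 1, against 70.6%, and 24 without WT 2, against 69%.

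**Figure D3:**
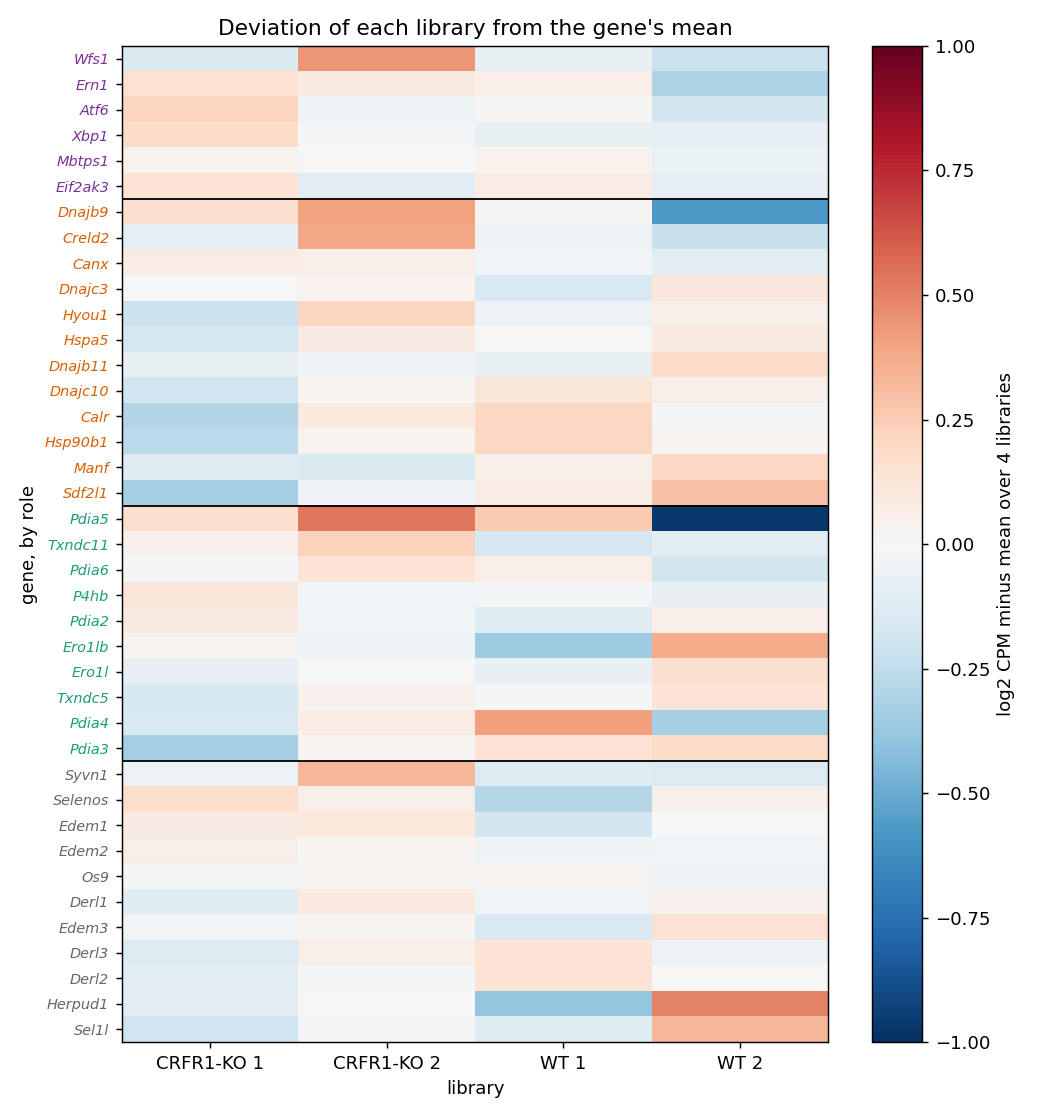
Log2 CPM of each gene in each library minus its mean over the 4 libraries (colour scale, red above and blue below the mean), with genes in rows by role. Dnajb9 and Pdia5 are lowest in WT 2, Herpud1 and Ero1lb are highest in WT 2 and lowest in WT 1, and many chaperones are bluer in CRFR1-KO 1 than in CRFR1-KO 2.

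Other genes of the same pathways, from lists drawn up beside the 39, also had 0 past the edgeR test, but the lists differed in direction. Of all genes tested, 49.2% had a fold change above 0. At an unadjusted edgeR p under 0.05 there were 1 of 18 regulators, 2 of 33 folding factors and 1 of 33 degradation genes. The share over all genes tested was 4.86%. Of 18 tested regulators of the response, 6 had a fold change above 0 and 12 below (median -0.05), and 0 passed the edgeR test. On library totals 3 stood above 0, with a median of -0.21 against -0.13 for all genes tested. Without CRFR1-KO 1, 11 stood above 0 (median 0.031), and without WT 1, 10 did (median 0.026). Atf4, the transcription factor induced downstream of PERK, had 73.0 and 86.1 CPM in CRFR1-KO, against 62.96 and 74.1 CPM in WT (log2 fold change 0.22, SE 0.19). Its target Ddit3, the CHOP gene, had 2.16 and 3.13 CPM in CRFR1-KO, against 2.43 and 2.72 CPM in WT (log2 fold change 0.04, SE 0.30). Trib3, a pseudokinase gene induced by CHOP, had 0.704 and 0.932 CPM in CRFR1-KO, against 1.42 and 2.58 CPM in WT. CRFR1-KO was the lower pair for Trib3, on 44 to 169 counts per library, with a log2 fold change of -1.28 (SE 0.44) that did not pass (edgeR adjusted p = 0.977) and was -0.79 without WT 2. The next smallest p in this list belonged to Crebrf (-0.40) and Eif2s1 (-0.28). Crebrf was -0.83 without CRFR1-KO 1 and -0.057 without CRFR1-KO 2, and Eif2s1 was -0.12 without CRFR1-KO 1.

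Among 33 tested folding factors outside the 39, 14 had a fold change above 0 and 19 below, with a median of -0.02 and 0 past the test. On library totals 6 stood above 0, with a median of -0.14 against -0.13 for all genes tested. Without CRFR1-KO 1, 18 stood above 0, and likewise 18 without WT 1. Fkbp10, a collagen-directed prolyl isomerase, had 0.896 and 0.886 CPM in CRFR1-KO, against 2.69 and 1.19 CPM in WT (log2 fold change -1.12, SE 0.47). WT 1 was the high library for Fkbp10, as it was for the fibroblast markers, and a link between them was not tested. Both CRFR1-KO libraries also lay below WT 2, and without WT 1 the value was -0.42. Tmx3, a membrane-bound thioredoxin-related gene, stood at -0.50 and the cyclophilin gene Ppic at -0.41. Tmx3 was -0.30 without WT 1, and Ppic was -0.076 without WT 2. Among 33 tested degradation genes outside the 39, 23 had a fold change above 0 and 10 below, with a median of 0.09 and 0 past the test. On library totals that split was 10 above and 23 below, with a median of -0.04 against -0.13 for all genes tested. Svip, encoding a small p97-interacting protein known as an inhibitor of ER-associated degradation, had 15.0 and 12.4 CPM in CRFR1-KO, against 10.4 and 10.1 CPM in WT (log2 fold change 0.42, SE 0.18). Erlin1 and Rnft1 stood at 0.37 and 0.25, with CRFR1-KO the upper pair for both, and Erlin1 was 0.19 without WT 1.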

How the data were processed

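The authors deposited whole-number counts per Ensembl gene and library, not normalized. The protocols in the labels describe poly(A) selection with oligo(dT) and a dUTP method that keeps strand. FastQC, DESeq2 and edgeR are the tools that the submitters' processing notes list, without versions. Aligner, counter, strand setting and build were not found in the sources. Reads of 10 genes with an antisense partner (Eif2ak3, Hsp90b1, Dnajb9, Manf, Pdia3, Pdia6, Txndc5, Txndc11, Derl2 and Syvn1) therefore cannot be assigned with certainty. Symbols, exon lengths and positions came from GENCODE M21 (GRCm38) and promoters from RefSeq (GRCm38.p6).

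The main test was the edgeR 4.0.16 quasi-likelihood F test in R 4.3.3, with TMM scaling, filterByExpr, group as sole term, two-sided, and Benjamini-Hochberg adjustment over 15131 genes at a threshold of 0.05. SEs came from the F statistic and 95% intervals from the t distribution with the test's degrees of freedom. CPM use scaled library sizes. No permutation test was run, since 2 against 2 libraries allow an exact two-sided p of 0.333 at best. Alternatives included DESeq2 1.42.0 and limma-voom 3.58.1. The edgeR step was tested on simulated data, with changes put in genes drawn at random from all those tested. There it called 18% of 2-fold changes (86 of 478) and 68% of 4-fold changes (319 of 469). Where no change was put in, it called 0.117% (84 of 71663).

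Replicate pairs were not duplicates (chi-square per degree of freedom at least 40.9). In each library more genes had a count of 4 than of 3 or 5 (912 against 356 and 216 in CRFR1-KO 1), so what a single count stands for is not settled. The genes and lists were chosen with earlier results of these data known. Values in every library were given for the sensors and Xbp1, and in each role for the most abundant gene per exon length and the 3 with the smallest p. From each other list the 3 genes with the smallest p were named. Values per library of P4hb, Sel1l, Atf4 and Ddit3 were added after they were seen. Protein sequences were not used here.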

Additional observations from a re-analysis of the deposited data

How the results depend on the processing

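The count of ER genes past the edgeR test was 0 under every alternative run, DESeq2 and limma-voom included. Over all genes, 4 passed in edgeR, against 58 with DESeq2, 0 with limma-voom, 7 with the replicate number as a block and 0 with exon-sharing gene models summed. Leaving out a library gave between 0 and 69 genes: 2 without CRFR1-KO 1, 0 without CRFR1-KO 2, 40 without WT 1 and 69 without WT 2. Libraries with the same replicate number showed no shared shift across genes (correlation of deviations -0.065). That value cannot tell whether they shared a litter, day or batch. The block changed no call among the 39 genes. On library totals the median of the 39 fold changes was -0.12 and 5 genes did not overlap. With a library left out, between 21 and 32 genes did not overlap.

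No gene among the 39 had passed a test, so the changes of sign below are of values inside their intervals, and their cause was not tested. On library totals the log2 fold change turned to -0.062 for Pdia2, -0.042 for P4hb, -0.052 for Edem2, -0.12 for Os9, -0.079 for Dnajc3, -0.022 for Pdia6, -0.12 for Eif2ak3, -0.094 for Hyou1 and -0.11 for Mbtps1. The median of all genes on library totals was -0.13, and each of these values lay above it. Os9 was -0.00050 with a filter of 1 CPM, and Hyou1 was -0.0054 with limma-voom and -0.0033 with the replicate block. With 1 library left out in turn, the log2 fold change crossed 0 for 16 genes. It ran from -0.034 to 0.16 for Pdia2, from -0.55 to 0.34 for Herpud1, from -0.43 to 0.020 for Sel1l and from -0.21 to 0.036 for Hspa5. For Ero1lb it ran from -0.38 to 0.35, for Os9 from -0.017 to 0.039, for Derl3 from -0.17 to 0.031, for Dnajc3 from -0.092 to 0.17 and for Dnajb11 from -0.24 to 0.021. For Eif2ak3 it ran from -0.10 to 0.15, for Hyou1 from -0.21 to 0.21, for Edem3 from -0.16 to 0.15 and for Derl1 from -0.12 to 0.094. For Pdia4 it ran from -0.43 to 0.30, for Mbtps1 from -0.019 to 0.083 and for Ero1l from -0.20 to 0.038. With 2 libraries a genotype and SEs of at least 0.16, changes smaller than these intervals could not be seen. In simulated data the edgeR step called only 18% of 2-fold changes, so the test alone could miss larger changes too. Those changes were put in genes drawn at random from all 15131 tested, so that share is not the rate for these 39 genes. For 37 of the 39 the 95% interval excluded a 2-fold change in either direction.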
